A study of Homo sapiens with 6 samples.

Results

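Translation initiation and elongation factors are the proteins that load ribosomes onto mRNA, find the start codon and then drive the ribosome along the message. The rows described here are the gene symbols that begin with Eif1 to Eif6, Eef1 or Eef2, without the 4 eIF2 kinases and 1 pseudogene row, which left 77 of 38986 gene rows. The libraries were compared in 2 groups of 3. One group is labelled as 293T cells that overexpress wild-type STAT6, a transcription factor of interleukin signalling. The other is labelled Mock, given as wild type in the genotype field, and both groups are described as mCherry-positive. 293T is a human embryonic kidney line with the large T antigen of SV40. The promoter that drives STAT6, the number of clones and any pooling of cultures were not given in the sources used here.

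In initiation, eIF2 carries the initiator tRNA to the small ribosomal subunit, eIF1, eIF1A and eIF3 hold that subunit open for scanning, and the eIF4 factors bind the mRNA cap and unwind the leader. The exchange factor eIF2B recharges eIF2 with GTP, and its block after phosphorylation of eIF2 is the centre of the integrated stress response. In elongation, eEF1A delivers aminoacyl-tRNA and eEF2 moves the ribosome by a codon. Many of these mRNAs begin with a terminal oligopyrimidine (TOP) tract, through which the kinase complex mTORC1 controls their translation.

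The files and their labels differ in organism and in the direction of change of Stat6. No translation factor symbol was written as a human symbol, and 59 of the 77 equalled one only after capitalisation. Over the whole files 17 symbols were written exactly as human symbols and 16671 equalled one only after capitalisation. Stat6 stood at 35.1, 33.6 and 32.1 CPM in the STAT6-labelled libraries, against 95.2, 95.5 and 92.8 CPM in the Mock-labelled libraries, so it was lower where the label says overexpression (log2 fold change -1.49, SE 0.045, adjusted p = 7.47e-26, edgeR). Of 7 listed markers of kidney and of 293T, 5 stayed under 1 CPM in every library, Pax8 among them at 0. The other 2 rose, Lhx1 with 79, 59 and 60 counts in the STAT6-labelled libraries against 0 in each Mock-labelled library, and Vim, which many cell types express and which carried nearly all of the list's sum of 4499 to 4530 CPM with the STAT6 label and 3236 to 3405 CPM with the Mock label. All 7 pigment cell markers were above 1 CPM in every library, at a summed 16705 to 16841 CPM with the STAT6 label and 14404 to 14750 CPM with the Mock label. Of these 4 rose and 2 fell, Pmel slightly and Tyr to 29.1 ± 0.758 CPM in the STAT6-labelled libraries, against 303 ± 5.29 CPM in the Mock-labelled libraries (SD, n = 3 each). The summed fibroblast list lay between 78.5 and 84.9 CPM with the STAT6 label and between 18.7 and 20.7 CPM with the Mock label. In it Col1a1 rose (78.7 against 4.85 CPM), Col1a2 fell (2.14 against 13.4 CPM), Pdgfra was not called, and Dcn and Lum had 0 or 1 count per library. The endothelial list stayed under 1 CPM, and the leukocyte list lay between 2.11 and 2.32 CPM against 0.474 and 0.818 CPM. The part of these differences in the results below was not tested. Group names below are therefore the labels alone, and in such bulk samples fewer cells of a type cannot be told apart from less RNA per cell. Library totals ran from 19894773 to 29802693 counts. Separate cultures are not stated in the labels, and the p-values may thus reflect only technical spread among the numbered libraries.

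Values are in CPM, counts scaled to TMM-adjusted library totals. Fold changes are STAT6-labelled over Mock-labelled libraries on the log2 scale, from edgeR's quasi-likelihood test with Benjamini-Hochberg adjustment over all 12938 genes tested and a threshold of 0.05. The translation factor rows together took 2.02% ± 0.0133 of the counts in the STAT6-labelled libraries and 2.42% ± 0.0258 in the Mock-labelled libraries (SD, n = 3 each), and these shares did not overlap. Of the 77 rows, 62 passed the filter on low counts and were tested. Eef1a2 alone among these had under 50 counts in every library, and the 15 rows not tested had at most 14 counts in any library.

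Most of the measured translation factors were lower in the STAT6-labelled libraries. Of the 62 tested rows 43 fell (69.4%), where 36.8% of all tested genes fell. Only 8 rose (12.9%), where 35.8% of all tested genes rose, and 11 did not pass the threshold. In all, 82.3% of the tested rows were called, against 72.6% of all tested genes. The falls were small. The median log2 fold change of the tested rows was -0.23, against -0.0033 over all tested genes, and the median size without its sign was 0.28 against 0.35. A fall of at least 1.5-fold was called in 2 rows, Eif2c5 and Eef1g (background 11.3% of genes), and a rise of that size in 2 rows, Eif4a2 and Eef1a2 (background 17.8%). A test for a change beyond 1.5-fold called Eif4a2 alone (adjusted p = 0.00377, edgeR's glmTreat), where it called 21.5% of all genes. The CPM ranges of the groups did not overlap in 50 of the 62 tested rows, where 74.6% of all tested genes had no overlap.

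**Figure D1:**
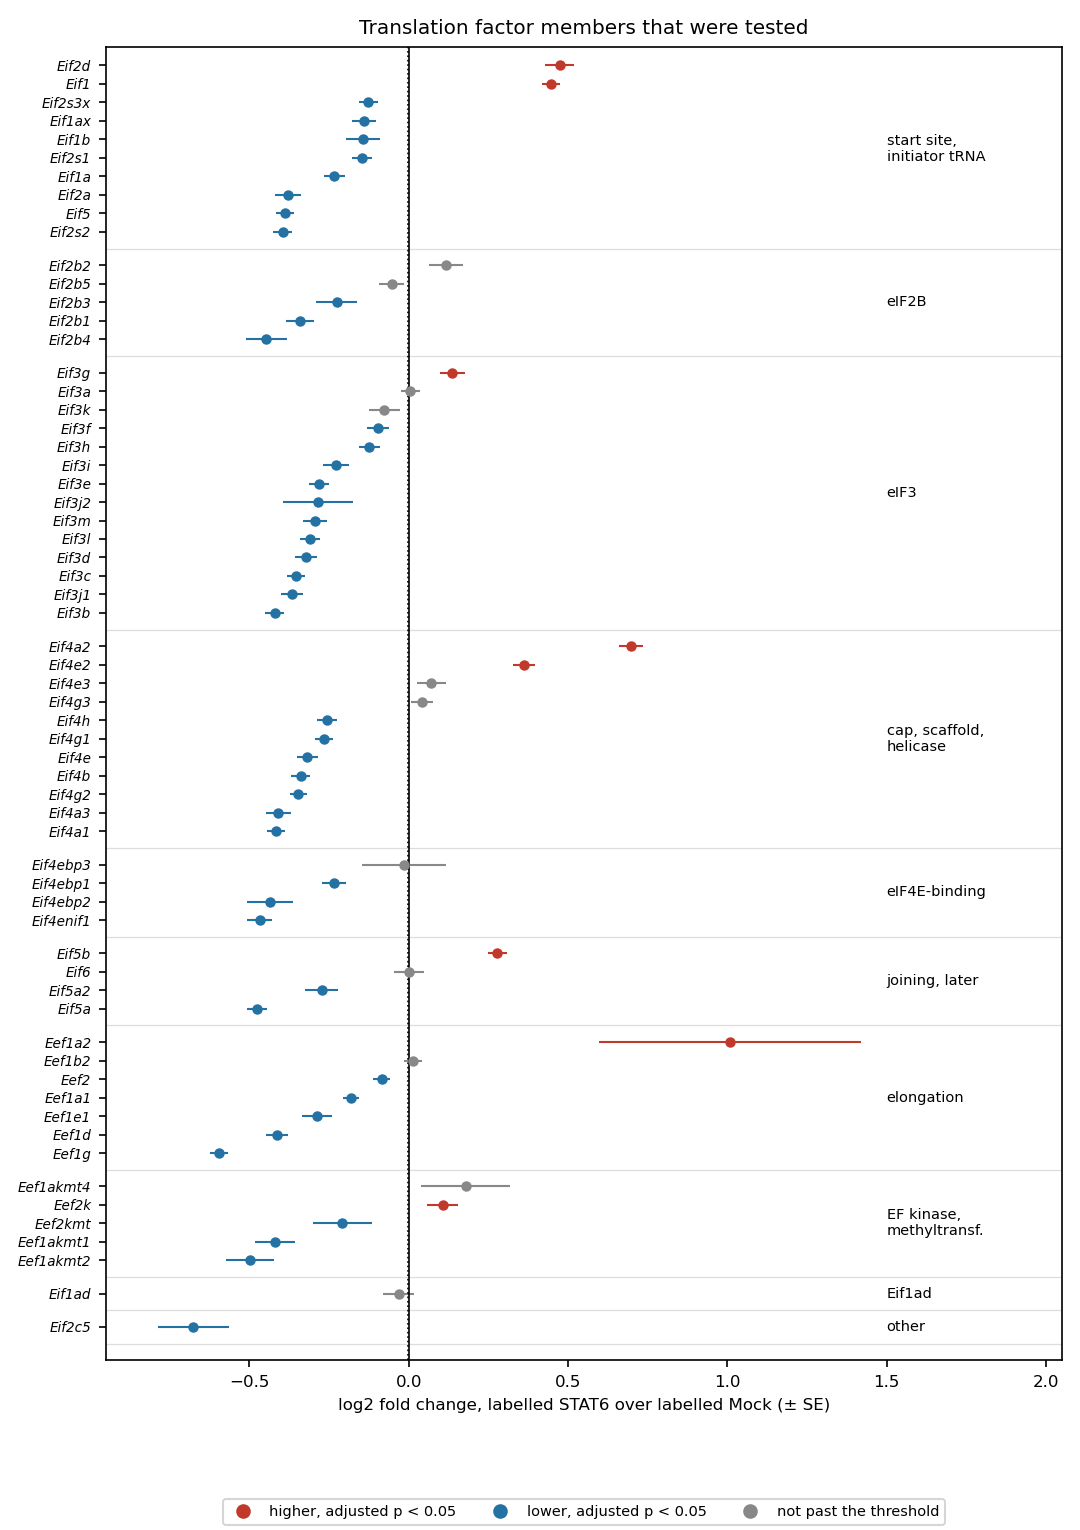
Log2 fold change (± SE) of the 62 tested translation factor rows, labelled STAT6 over labelled Mock, grouped by role from initiation at the top to elongation below, with the dotted line at the median of all tested genes. Most points lie left of 0, and Eif4a2 (0.70), Eif2d (0.47), Eif1 (0.45), Eif4e2 (0.36) and Eif5b (0.28) stand to the right with narrow errors.

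Of 10 tested genes for start site selection and initiator tRNA delivery, 8 fell (80%) and 2 rose (20%). The shares over all tested genes were 36.8% and 35.8%. Eif1 and Eif5, which act on the choice of the start codon, moved in opposite directions. Eif1 encodes the small protein that keeps the scanning ribosome from settling on poor start sites. Its level was 700.4, 710.1 and 713 CPM in the STAT6-labelled libraries, against 501, 524 and 531 CPM in the Mock-labelled libraries. Every STAT6-labelled library was above every Mock-labelled one, a log2 change of 0.45 (SE 0.029, adjusted p = 4.81e-16). Eif5 encodes the protein that triggers GTP hydrolysis by eIF2 at the start codon and is known to work against eIF1 there. It measured 442, 444 and 434 CPM in the STAT6-labelled libraries, against 584, 575 and 568 CPM in the Mock-labelled libraries. All 3 STAT6-labelled libraries lay below the Mock-labelled ones (log2 fold change -0.39, SE 0.028, adjusted p = 1.64e-14). Eif1b, a close paralogue of Eif1, had a small log2 change of -0.14 (adjusted p = 0.0144), which did not pass with DESeq2 (adjusted p = 0.0531), without STAT6 replicate 1 (0.0938) and without Mock replicate 1 (0.0547). Eif1a (-0.23) and its near-identical paralogue Eif1ax (-0.14), which encode the scanning factor eIF1A, both fell, and how reads were divided between them is uncertain.

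All 3 expressed subunits of eIF2 fell, by different amounts. Eif2s1, which encodes the alpha subunit that stress kinases phosphorylate, stood at 192, 188 and 188 CPM in the STAT6-labelled libraries, against 212, 204 and 213 CPM in the Mock-labelled libraries. The groups did not overlap, and the fall was -0.15 in log2 units (SE 0.032, adjusted p = 0.00014). The beta subunit gene Eif2s2 fell further, to 442 ± 9.66 CPM in the STAT6-labelled libraries, against 582 ± 12.7 CPM in the Mock-labelled libraries (SD, n = 3 each; log2 fold change -0.40). The GTP-binding gamma subunit, encoded by Eif2s3x, fell by 0.13 on the log2 scale (adjusted p = 0.000306), and its homologue Eif2s3y had 0 to 3 counts in any library.

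The alternative carriers of initiator tRNA were split. Eif2d encodes a factor that can bring tRNA to the ribosome without eIF2 and that takes part in recycling. Its level was 59.6, 58.1 and 59.9 CPM in the STAT6-labelled libraries, against 43.8, 43.2 and 41.1 CPM in the Mock-labelled libraries. All STAT6-labelled libraries were above the Mock-labelled range (log2 fold change 0.47, SE 0.045, adjusted p = 1.62e-11). Eif2a, a protein unrelated to eIF2 in spite of its name, fell to 60.8 ± 1.56 CPM in the STAT6-labelled libraries, against 79.1 ± 1.96 CPM in the Mock-labelled libraries (SD, n = 3 each; log2 fold change -0.38, adjusted p = 3.6e-10). Denr and Mcts1, which encode the partners in a dimer related to eIF2D, were also split, Denr at -0.49 and Mcts1 at 0.46.

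Among the 5 subunits of the exchange factor eIF2B, 3 fell (60%) and 2 were not called. Of all tested genes 36.8% fell and 72.6% were called in either direction, so the share of eIF2B subunits called was no higher. Eif2b4 encodes the delta subunit of the regulatory core. It stood at 18.6, 18.2 and 18.4 CPM in the STAT6-labelled libraries, against 25.1, 23.5 and 26.5 CPM in the Mock-labelled libraries. The ranges were separate, with a log2 change of -0.45 (SE 0.064, adjusted p = 1.39e-07). The alpha subunit gene Eif2b1 had 60.5, 57.8 and 58.4 CPM with the STAT6 label and 72.5, 72.3 and 78.7 CPM with the Mock label, again without overlap (log2 fold change -0.34, SE 0.043, adjusted p = 1.27e-08). Of the catalytic pair, Eif2b3 fell by 0.23 on the log2 scale (adjusted p = 0.00227). Eif2b5, the epsilon subunit that carries out the exchange, had 73.0, 74.1 and 78.0 CPM in the STAT6-labelled libraries, against 77.6, 77.2 and 78.5 CPM in the Mock-labelled libraries. Its groups overlapped and it was not called (-0.053, SE 0.040, adjusted p = 0.23); scaled to library totals alone, it was called lower (-0.13, adjusted p = 0.00472). Eif2b2, the beta subunit, had a log2 change of 0.12 at an adjusted p of 0.0512, just outside the threshold, and passed it with DESeq2's size factors (0.0464), with a filter of 1 CPM in 3 libraries (0.0395), without STAT6 replicate 3 (0.0241) and without Mock replicate 3 (0.0145).

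The eIF3 complex is the largest initiation factor and the platform that holds the other factors on the small subunit. Of its 14 rows 11 fell (78.6%) and 1 rose (7.14%), where 36.8% of all tested genes fell and 35.8% rose. The median log2 change of these rows was -0.28. Eif3b, the scaffold of the b-g-i module, stood at 307, 305 and 308 CPM in the STAT6-labelled libraries, against 407, 409 and 416 CPM in the Mock-labelled libraries. The groups were well apart (log2 fold change -0.42, SE 0.029, adjusted p = 4.6e-15). Eif3c, a core subunit of the octamer that forms the body of the complex, had 453, 444 and 450.1 CPM with the STAT6 label and 564, 577 and 582 CPM with the Mock label. This fall was also free of overlap (-0.35, SE 0.028, adjusted p = 1.81e-13).

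The subunits of eIF3 did not move as a unit. In the octamer, Eif3l (-0.31), Eif3m (-0.29), Eif3e (-0.28), Eif3h (-0.12) and Eif3f (-0.10) fell besides Eif3c. Eif3a, which encodes the other core subunit beside eIF3c, had 1008, 1009.9 and 1006 CPM in the STAT6-labelled libraries, against 954, 1059.7 and 1001 CPM in the Mock-labelled libraries. Its STAT6-labelled values lay inside the Mock-labelled range, and it was not called (0.0049, SE 0.030, adjusted p = 0.891); with library totals alone it was -0.069 and passed (adjusted p = 0.0393). Eif3k was not called either (-0.077, adjusted p = 0.171) but passed as lower with library totals alone (-0.15, adjusted p = 0.0150), without STAT6 replicate 1 (0.0265) and with no filter on low counts (0.0462), and Eif3f lost its call without STAT6 replicate 1 (0.0567) or Mock replicate 1 (0.0582).

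Outside the octamer, Eif3i (-0.23) fell with its partner Eif3b, whereas Eif3g, the RNA-binding subunit of the same module, was the 1 subunit that rose. Eif3g had 106, 108 and 104 CPM in the STAT6-labelled libraries, against 91.4, 99.5 and 98.7 CPM in the Mock-labelled libraries. The groups were separate, but the gap was narrow, with a log2 change of 0.14 (SE 0.039, adjusted p = 0.00196) that was 0.063 and not called with library totals alone (adjusted p = 0.139). Eif3d, which can itself bind a cap, fell by 0.32 on the log2 scale. The loosely attached subunit eIF3j is encoded in the mouse by Eif3j1 (-0.36) and its near-copy Eif3j2 (-0.29). Eif3j2 was no longer called with DESeq2 (adjusted p = 0.066), nor without STAT6 replicate 3 (0.182) or Mock replicate 3 (0.0544).

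Paralogues of the cap-binding complex changed against each other. The helicase eIF4A unwinds mRNA leaders and is encoded by Eif4a1 and Eif4a2. Eif4a2 stood at 302, 281 and 276 CPM in the STAT6-labelled libraries, against 187, 172 and 171 CPM in the Mock-labelled libraries. It was higher in every STAT6-labelled library and had the largest log2 fold change among rows above 2 CPM (0.70, SE 0.038, adjusted p = 1.08e-15). Eif4a1 had 472, 460.4 and 451 CPM in the STAT6-labelled libraries, against 621, 597 and 628 CPM in the Mock-labelled libraries. It was lower in every STAT6-labelled library (-0.42, SE 0.029, adjusted p = 6.4e-15). Eif4a3, which belongs to the exon junction complex and not to the cap complex, fell by 0.41 on the log2 scale.

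The cap-binding proteins showed the same kind of split. Eif4e encodes the protein that recruits eIF4G to the cap. Its level was 172, 164 and 168 CPM in the STAT6-labelled libraries, against 212, 207 and 209 CPM in the Mock-labelled libraries, with all STAT6-labelled libraries lower (log2 fold change -0.32, SE 0.033, adjusted p = 1.01e-10). Eif4e2 encodes 4EHP, a cap-binding protein that does not bind eIF4G and acts as a repressor with GIGYF2. It had 149.8, 148 and 149.6 CPM in the STAT6-labelled libraries, against 112, 116 and 119.9 CPM in the Mock-labelled libraries, and all STAT6-labelled libraries were higher (0.36, SE 0.035, adjusted p = 2.54e-11). Gigyf2 rose slightly (0.20, adjusted p = 2.49e-05), whereas Gigyf1, from the same list of cap partners, fell slightly (-0.16, adjusted p = 0.0349). Eif4e3, another cap-binding paralogue, was not called (0.071, adjusted p = 0.162).

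**Figure D2:**
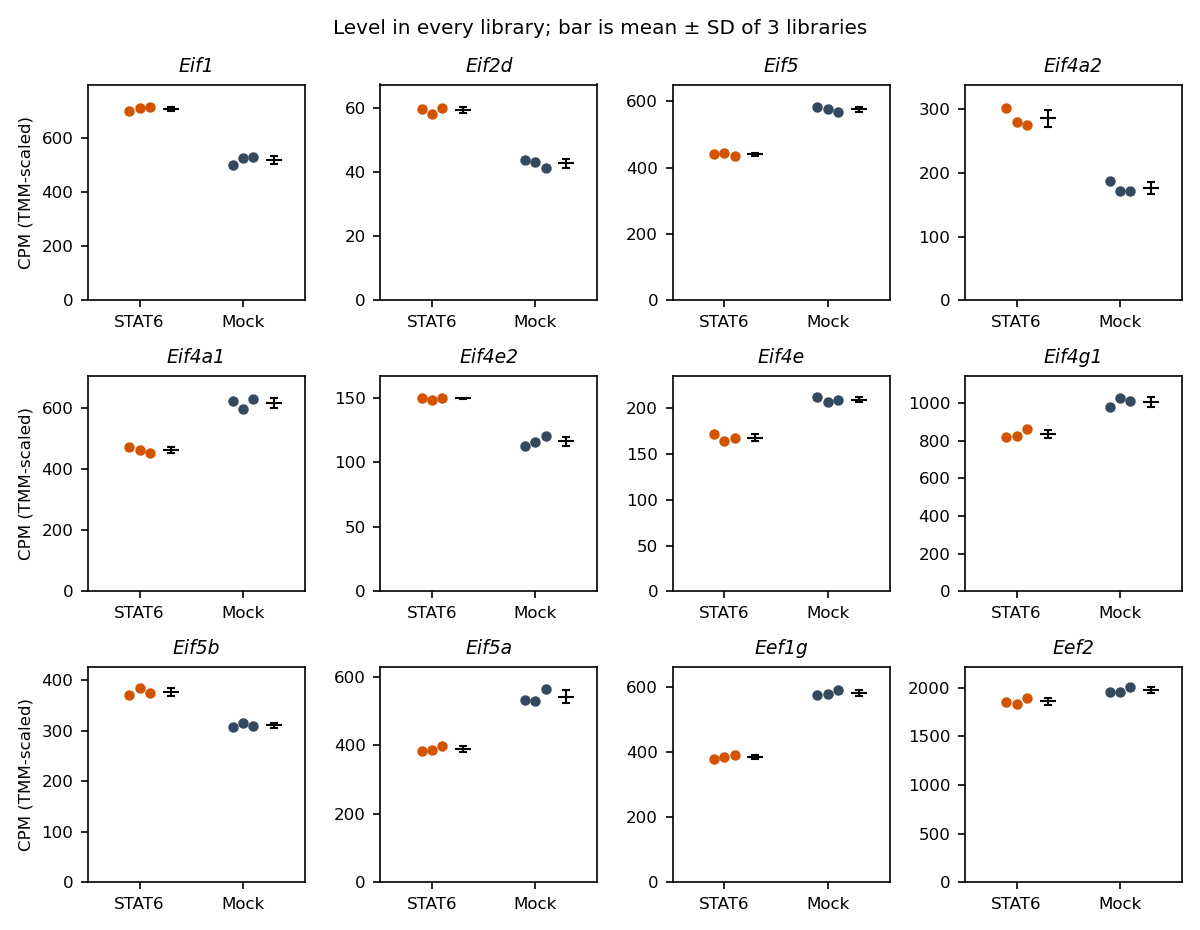
Level (CPM, TMM-scaled, axis from 0) of 12 translation factor genes in each library, with the mean ± SD of 3 libraries per label at the right of each set. Eif1, Eif2d, Eif4a2, Eif4e2 and Eif5b are higher in all 3 STAT6-labelled libraries, and the other 7 genes are lower in all 3, by the least for Eef2.

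The scaffold eIF4G joins the cap, the helicase and eIF3. Eif4g1 stood at 819.7, 827 and 862 CPM in the STAT6-labelled libraries, against 979, 1029 and 1009.9 CPM in the Mock-labelled libraries. It fell with no overlap between groups (-0.27, SE 0.028, adjusted p = 2.23e-10). Eif4g2, which encodes DAP5, an eIF4G-like protein that cannot bind eIF4E, fell to 1776 ± 14.3 CPM in the STAT6-labelled libraries, against 2259 ± 68.0 CPM in the Mock-labelled libraries (SD, n = 3 each; -0.35). Eif4g3, the other full scaffold gene, had a log2 change of 0.042 and was not called (adjusted p = 0.289), though it passed as higher without Mock replicate 2 (0.0414). The helicase cofactors Eif4b (-0.34) and Eif4h (-0.26) both fell.

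Shares within paralogue pairs put these shifts on a scale that needs no library total. Transcript lengths were not used, so a share is read only between libraries. Eif4a2 made up 39.0, 37.9 and 37.9% in the STAT6-labelled libraries, against 23.1, 22.3 and 21.5% in the Mock-labelled libraries of the Eif4a1 and Eif4a2 counts, a difference of 16.0 percentage points with no overlap. Eif4e2 took 46.5, 47.5 and 47.2% in the STAT6-labelled libraries, against 34.7, 35.8 and 36.4% in the Mock-labelled libraries of the Eif4e and Eif4e2 counts, which is 11.4 points more. Eif1 took 95.2% ± 0.144 of the Eif1 and Eif1b counts with the STAT6 label and 93.0% ± 0.469 with the Mock label (SD, n = 3 each). These 3 pairs did not overlap between groups, and neither did Eif4g1 with Eif4g3, Eif4e3 with Eif4e or Eif5a with Eif5a2, where the share of the first gene moved by -2.88, 4.33 and -0.915 points. The other 5 pairs examined overlapped, including Eif1a with Eif1ax and Eif3j1 with Eif3j2. No p is given for these shares, since 3 libraries against 3 cannot reach the threshold in a permutation test.

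**Figure D3:**
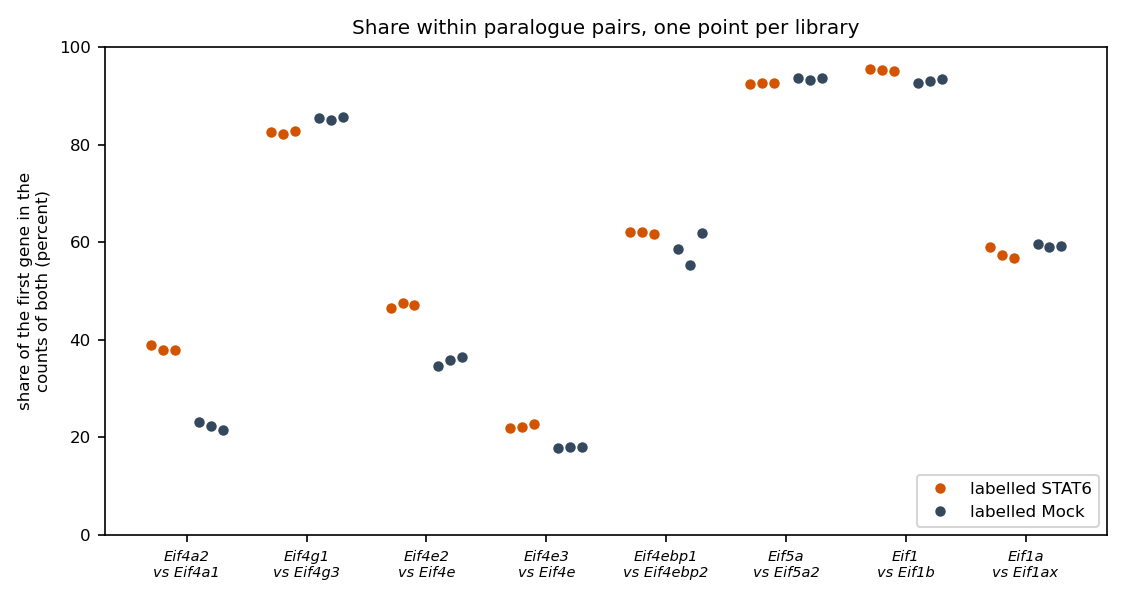
Share of the first gene of 8 paralogue pairs in the counts of both genes (percent, axis from 0 to 100), 1 point per library, STAT6-labelled left of Mock-labelled. The Eif4a2 share lies between 37.9% and 39.0% with the STAT6 label and between 21.5% and 23.1% with the Mock label, whereas the Eif4ebp1 and Eif1a shares overlap between labels.

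The eIF4E-binding proteins hold eIF4E away from eIF4G until mTORC1 phosphorylates them. Of 4 genes for proteins that bind and restrain eIF4E, 3 fell (75%) and 1 was not called. Of all tested genes 36.8% fell and 72.6% were called in either direction, a share close to that of these 4. Eif4ebp1 had 99.3, 102 and 99.3 CPM in the STAT6-labelled libraries, against 113, 117 and 123 CPM in the Mock-labelled libraries. The groups did not overlap (-0.23, SE 0.038, adjusted p = 1.17e-06). Eif4ebp2 fell by 0.43 in log2 units (SE 0.073, adjusted p = 0.000412), with Mock replicate 2 at 93.8 CPM standing above Mock replicates 1 and 3 at 79.9 and 75.9 CPM. Eif4ebp3, the lowest of these rows in CPM, was not called (-0.014, SE 0.131, adjusted p = 0.929). Eif4enif1 encodes the transporter that takes eIF4E into the nucleus and represses bound mRNAs. It stood at 67.2, 68.5 and 68.0 CPM in the STAT6-labelled libraries, against 93.7, 94.1 and 93.7 CPM in the Mock-labelled libraries, with every STAT6-labelled library lower (-0.47, SE 0.038, adjusted p = 3.46e-13).

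Among the 4 genes for subunit joining and later steps, 1 rose (25%) and 2 fell (50%). Of all tested genes 35.8% rose and 36.8% fell. Eif5b encodes the GTPase that joins the large ribosomal subunit. It had 369.8, 384 and 375 CPM in the STAT6-labelled libraries, against 306, 316 and 309 CPM in the Mock-labelled libraries, higher in every STAT6-labelled library (0.28, SE 0.030, adjusted p = 3.15e-10). Eif5a encodes the protein with the modified lysine hypusine, which helps ribosomes form difficult peptide bonds. Its level was 384, 385 and 399.7 CPM in the STAT6-labelled libraries, against 533, 528 and 564 CPM in the Mock-labelled libraries. The groups were far apart relative to their spread (-0.48, SE 0.031, adjusted p = 4.89e-16), and its paralogue Eif5a2 fell too (-0.27). Eif6, which keeps large subunits from joining too early, had 44.3, 41.3 and 43.2 CPM in the STAT6-labelled libraries, against 43.5, 42.9 and 42.6 CPM in the Mock-labelled libraries. The ranges overlapped, and its log2 change of 0.00061 (SE 0.048, adjusted p = 0.991) had no stable sign across the alternatives.

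The 7 rows grouped as elongation factors include Eef1e1 by its symbol. Of these rows 5 fell (71.4%), 1 rose (Eef1a2, 14.3%, close to the detection limit) and 1 (Eef1b2) was not called. Of all tested genes 36.8% fell and 35.8% rose. Eef1a1 encodes eEF1A and supplied 28.0% to 29.2% of all translation factor counts in every library. Its level was 5992, 5911 and 5965 CPM in the STAT6-labelled libraries, against 6829, 6570.5 and 6861 CPM in the Mock-labelled libraries. The fall was small but free of overlap (-0.18, SE 0.025, adjusted p = 4.56e-08); this gene has many processed copies, so read assignment is uncertain. The exchange factor eEF1B, which recharges eEF1A, has subunits encoded by Eef1b2, Eef1d and Eef1g. Eef1g had 379, 384 and 391 CPM in the STAT6-labelled libraries, against 574, 578 and 591 CPM in the Mock-labelled libraries. It fell in every STAT6-labelled library relative to the Mock-labelled ones (-0.60, SE 0.029, adjusted p = 1.35e-19), and among tested rows above 2 CPM only Eif2c5, an Argonaute-series symbol, fell further.

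The other subunits of the exchange factor differed from Eef1g. Eef1d stood at 129.8, 126 and 131 CPM in the STAT6-labelled libraries, against 168, 169.5 and 177 CPM in the Mock-labelled libraries. It fell with no overlap (-0.41, SE 0.034, adjusted p = 5.81e-13). Eef1b2, which encodes a catalytic subunit, had 584 ± 10.3 CPM in the STAT6-labelled libraries, against 579 ± 14.1 CPM in the Mock-labelled libraries (SD, n = 3 each) and was not called (0.014, SE 0.029, adjusted p = 0.675). Eef1e1, whose product sits in the complex of tRNA synthetases, fell by 0.29 on the log2 scale. Eef2 encodes the translocase. It had 1849, 1833 and 1898 CPM in the STAT6-labelled libraries, against 1958, 1954 and 2007 CPM in the Mock-labelled libraries. Both sets were narrow and just separate, so a fall of 0.085 on the log2 scale passed the test (SE 0.026, adjusted p = 0.00401).

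Eef1a2, the eEF1A gene of muscle and neurons, was close to the detection limit, with 18, 18 and 7 counts in the STAT6-labelled libraries, against 6, 6 and 14 counts in the Mock-labelled libraries. The groups overlapped, and its log2 change of 1.01 (SE 0.411, adjusted p = 0.0278) was no longer called with DESeq2 (0.0844), limma-voom (0.0578), no filter (0.0559) or the replicate block (0.0523), nor without STAT6 replicate 1 (0.0971), STAT6 replicate 2 (0.16), Mock replicate 1 (0.0836) or Mock replicate 2 (0.0773).

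Of 5 tested genes for enzymes that modify the elongation factors, 3 fell (60%), 1 rose (20%) and 1 was not called. Of all tested genes 36.8% fell and 35.8% rose. Eef2k encodes the kinase that inhibits eEF2 by phosphorylation. It had 42.2, 41.8 and 41.5 CPM in the STAT6-labelled libraries, against 38.0, 38.5 and 39.9 CPM in the Mock-labelled libraries. The groups did not overlap, but the rise was small (0.11, SE 0.048, adjusted p = 0.0461) and was not called with DESeq2 (0.109), library totals alone (0.548) or no filter (0.175), nor in 5 of the 6 fits that left out 1 library (0.078 to 0.147; Mock replicate 3 was the exception). The eEF1A lysine methyltransferase gene Eef1akmt2 had 11.4, 12.9 and 11.9 CPM in the STAT6-labelled libraries, against 17.4, 17.2 and 16.5 CPM in the Mock-labelled libraries. It fell without overlap (-0.50, SE 0.076, adjusted p = 4.11e-07). Eef1akmt1, another of these enzymes, had 17.7, 18.0 and 17.0 CPM with the STAT6 label and 23.0, 24.1 and 23.3 CPM with the Mock label and fell likewise (-0.42, SE 0.064, adjusted p = 4.17e-07). Eef1akmt4 was not called (0.18, adjusted p = 0.248) but passed as higher without Mock replicate 3 (0.0481), and Eef1akmt3 had 1 or 2 counts per library. Eef2kmt, the eEF2 methyltransferase gene, had a log2 change of -0.21 (adjusted p = 0.0422), with STAT6 replicate 3 inside the Mock-labelled range; the call was lost with DESeq2 (0.123) and without STAT6 replicate 1 (0.216), STAT6 replicate 2 (0.171), Mock replicate 2 (0.0657) or Mock replicate 3 (0.14).

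The rule also takes a few other symbols. Eif2c5 belongs to a symbol series once used for Argonaute genes, not for initiation factors. It had 5.01, 5.31 and 6.08 CPM in the STAT6-labelled libraries, against 8.46, 9.01 and 8.67 CPM in the Mock-labelled libraries, the largest fall of all tested rows above 2 CPM (-0.68, SE 0.110, adjusted p = 1.41e-06). Without it and Eef1ece2, which was not tested, 42 rows fell and 8 rose. Eif1ad, which encodes a protein with an eIF1A-like domain, had 43.6, 44.0 and 43.5 CPM in the STAT6-labelled libraries, against 41.8, 45.5 and 46.4 CPM in the Mock-labelled libraries, overlapped between groups and was not called (-0.031, SE 0.049, adjusted p = 0.577).

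Members whose mRNAs are known to begin with a TOP tract (Eef1a1, Eef1b2, Eef1d, Eef1g, Eef2, Eif3e, Eif3f, Eif3h and Eif4b) had 8 lower and 0 higher among 9 tested (edgeR; 0 higher also at an unadjusted p under 0.05, with DESeq2 and with limma-voom), and their median log2 change was -0.18. The tested rows outside that list had 35 lower (66.0%) and 8 higher (15.1%) among 53, and a median of -0.23. In the TOP list 88.9% fell and 0% rose, where 36.8% of all tested genes fell and 35.8% rose. Its median fall was smaller than that of the other rows, and the difference was not tested. Within the TOP list the values ran from -0.60 for Eef1g to 0.014 for Eef1b2.

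Genes that act on these factors were read from 6 lists, beside the 35.8% of all tested genes that rose and the 36.8% that fell. The eIF2 kinases and their partners had 4 higher (30.8%) and 7 lower (53.8%) of 13. The lower ones included Ppp1r15b (log2 fold change -0.39), Ppp1ca (-0.34), the kinase gene Eif2ak4 (-0.47) and Gcn1 (-0.42). Of the other kinase genes Eif2ak3 rose (0.36) and Eif2ak1 was not called. Ppp1r15a, which brings a phosphatase to eIF2, rose to 28.6 ± 1.10 CPM in the STAT6-labelled libraries, against 15.6 ± 0.640 CPM in the Mock-labelled libraries (SD, n = 3 each; 0.87, adjusted p = 1.76e-14), and the RNA-activated kinase gene Eif2ak2 (0.43) and Impact (0.47), an inhibitor of GCN2 activation, rose as well. The mRNA of Atf4, a transcription factor whose protein is made when eIF2 is phosphorylated, fell (log2 fold change -0.64, adjusted p = 4.29e-19, edgeR). It stood at 172 ± 0.498 CPM in the STAT6-labelled libraries, against 268 ± 7.70 CPM in the Mock-labelled libraries (SD, n = 3 each). Ddit3, from the same list, was not called (0.046, adjusted p = 0.485). Protein levels and phosphorylation of eIF2 were not measured here.

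The mTORC1 list had 7 higher (38.9%, close to the 35.8% of all tested genes) and 9 lower (50%, against 36.8%) of 18. In all, 88.9% of the list was called, against 72.6% of all tested genes. Deptor, an inhibitor of mTOR, rose to 209 ± 5.23 CPM in the STAT6-labelled libraries, against 36.3 ± 4.01 CPM in the Mock-labelled libraries (SD, n = 3 each; 2.52, adjusted p = 1.96e-18), a larger log2 change than that of any tested translation factor row. Pdcd4, which blocks eIF4A, rose by 0.79 on the log2 scale and Mknk2, a kinase of eIF4E, by 0.57. Rheb, the GTPase that activates mTORC1, fell (-0.67, adjusted p = 2.35e-16).

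Partners at the cap and the poly(A) tail had 6 higher (37.5%, also close to all tested genes) and 10 lower (62.5%) of 16. The poly(A)-binding protein genes Pabpc1 (-0.43) and Pabpc4 (-0.54) fell and so did Larp4 (-0.61), whereas Paip2, an inhibitor of poly(A)-binding protein, rose (0.52). The list of hypusine and diphthamide enzymes, with the polyamine genes that feed hypusine, had 2 higher (16.7%) and 6 lower (50%) of 12. In it Odc1, which makes putrescine, rose (0.42) and so did Dph3 (0.37), and the spermidine and spermine synthase genes Srm (-0.59) and Sms (-0.63) fell. Dhps, the first hypusine enzyme, fell by 0.22 on the log2 scale (adjusted p = 0.00459), and Dohh, the second, was not called (-0.071, adjusted p = 0.287).

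Termination, recycling and rescue factors had 3 higher (20.0%) and 10 lower (66.7%) of 15. Hbs1l, a ribosome rescue factor, rose (0.53), while its partner Pelo fell (-0.40). Abce1, which splits ribosomes after termination, fell (-0.28), as did Serbp1 (-0.25). Mitochondrial translation factors had 7 lower (63.6%) and 1 higher (9.09%) among 11 and a median log2 change of -0.55. The lower ones included the elongation factor genes Gfm1 (-0.71) and Tufm (-0.59) and Guf1 (-0.58). The release factor gene Mtrf1l rose (0.78). Over the 6 lists together 23 of 85 genes rose and 49 fell, or 27.1% and 57.6%, against 35.8% and 36.8% of all tested genes.

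**Figure D4:**
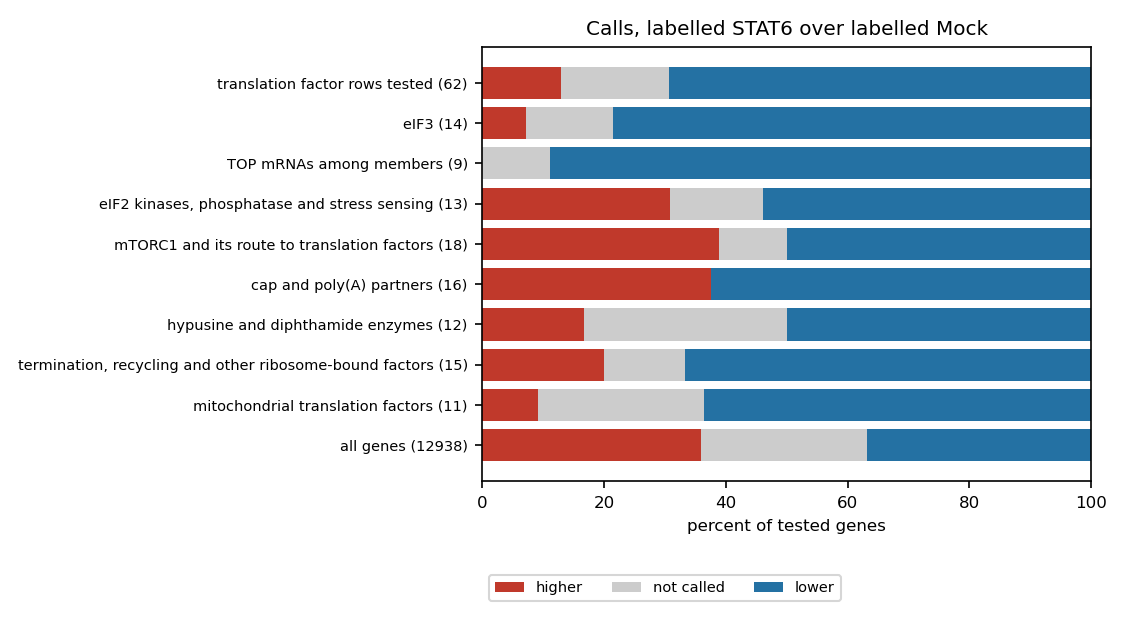
Percent of tested genes called higher (red), called lower (blue) or not called (grey) at an adjusted p under 0.05, for the 62 tested translation factor rows, 2 subsets of them, 6 lists of partner genes and, at the bottom, all 12938 tested genes, with the number tested in brackets. The share called lower is 69.4% for the translation factor rows and 36.8% for all genes.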

How the data were processed

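RNA-seq of 6 libraries, 3 per label, was analysed from the raw counts per gene symbol that the authors deposited. Per the submitters' processing notes, FastQC, STAR, Salmon and edgeR were used with the human build GRCh37; versions, read assignment and strand setting were not given in the sources used here. Per the labels' protocols, libraries came from a stranded kit for polyadenylated RNA. Symbols are mouse symbols, and no mouse sequence was used.

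Counts were fitted with edgeR 4.0.16 in R 4.3.3: filterByExpr by group, TMM, glmQLFit with robust = TRUE, glmQLFTest, group as the only term. Kept genes held 99.9% of counts. Alternatives used DESeq2 1.42.0, limma 3.58.1, other scalings and filters, a replicate block, glmTreat and each library left out.

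Named in full are 10 preset members, the 2 with the smallest adjusted p per role, and the 5 largest changes each way above 2 CPM; up to 4 genes per partner list are named, and further genes outside the rule by fold change. Members and lists were chosen with earlier results of these data known.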

Additional observations from a re-analysis of the deposited data

How the results depend on the processing

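The counts of 43 lower and 8 higher translation factor rows stayed within 1.5 times under each alternative except these. With no filter on low counts 13 rose, since rows too low for the filter were then tested. The test for a change beyond 1.5-fold (edgeR's glmTreat) called 1 higher and 0 lower rows, and 0 lower also at an unadjusted p under 0.05. At that unadjusted level the test against no change gave 43 lower rows with edgeR and 42 with DESeq2. Of the partner genes glmTreat called 6 higher and 3 lower, against 23 and 49 in the main fit. Leaving out 1 library gave 6 to 11 higher and 41 to 42 lower rows. DESeq2 gave 6 and 40, limma-voom 7 and 43, and library totals alone 6 and 46, with the median of all genes shifted by -0.074. With library totals alone 42.5% of all calls were higher, against 49.3% with TMM. Deviations from the group means correlated at 0.052, 0.10 and 0.031 between same-numbered libraries of the labels. Between libraries of unlike number the values ran from -0.083 to 0.035. Whether the numbers mark pairs was not settled by these small values, and the main fit took no pairs. With the replicate block 7 rose and 43 fell, and the call of Eef1a2 alone was lost among the members. Not every sign held for genes that were not called. With library totals alone Eif3a was at -0.069, Eif4e3 at -0.0026, Eif4g3 at -0.032, Eif6 at -0.073 and Eef1b2 at -0.060. With no filter Eif3a was at -0.011, Eif6 at -0.016 and Eef1b2 at -0.0028, and with the replicate block Eif6 was at -0.00074. Leaving out 1 library gave Eif3a -0.036 to 0.039, Eif4ebp3 -0.094 to 0.071, Eif6 -0.026 to 0.029 and Eef1b2 -0.0054 to 0.030. The cause of these differences was not tested. Eef1a2, Eef1akmt4, Eif4ebp3, Eif3j2 and Eif2c5 had the lowest counts of the tested rows and the largest errors.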

Other observations

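Several rows too low to be tested had more counts in the STAT6-labelled libraries. Low rows in general leaned the same way, with 18798 to 19367 genes counted at least once in the STAT6-labelled libraries and 17287 to 18659 in the Mock-labelled libraries, and with no filter the median log2 fold change of all genes was 0.12, against -0.0033 with it. The 10 numbered copies of Eif1ad together had 131 counts there and 22 counts in the Mock-labelled libraries, a depth-scaled ratio of 7.26 with an exact conditional 95% interval of 4.60 to 11.99, which covers counting error only. Per library the sum of these copies was 38 to 49 counts with the STAT6 label and 6 to 8 counts with the Mock label. Eif4a3l1, a near-copy of Eif4a3, had 30 counts against 5 (ratio 7.32, interval 2.81 to 24.2), and Eef1ece2 had 30 against 16 (ratio 2.29, interval 1.21 to 4.49). These rows were singled out after their values were seen. The copies are near-identical in name and possibly in sequence, so the division of reads among them is uncertain.

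Genes beside a few members in the human order were compared by name (assembly GRCh38.p14), since no mouse order was used here. For scale, 35.8% of all tested genes rose and 36.8% fell. Among the 5 tested genes on each side of Eif4a2, 5 rose and 4 fell, from -0.73 for Rfc4 to 2.26 for Masp1 on the log2 scale. Around Eef2 4 of 10 rose and 1 fell, with a median log2 fold change of 0.15, while Eef2 itself had -0.085. Around Eef1g, chosen after its value was seen because Eif2c5 has no human gene of that name, 3 rose and 4 fell of 10, with a median of -0.0038.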
